A study of Mus musculus with 17 samples.

Results

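The proteasome genes of mouse fetal liver cells are described here across 17 RNA sequencing libraries. They were taken as every gene whose symbol has the form Psma, Psmb, Psmc, Psmd, Psme, Psmf or Psmg followed by a number, which gave 49 genes of the 47069 listed. The 49 comprise 14 constitutive subunits of the core particle, 7 in the alpha ring and 7 in the beta ring, and the 3 immunoproteasome subunits Psmb8, Psmb9 and Psmb10. A further 17 encode subunits of the regulatory particle, of which 6 are ATPases, 3 are non-ATPase subunits of the base and 8 form the lid. The remainder are 3 chaperones of base assembly, 4 chaperones of core assembly, 5 activator genes, the inhibitor gene Psmf1, the testis-type alpha subunit Psma8 and the thymus-type beta subunit Psmb11.

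The study changed the level of Arid3a, a transcription factor gene, in fetal liver cells that make GATA1s, the short form of the blood cell transcription factor GATA1. All cells came from E12.5 to E13.5 embryos with the allele Gt(ROSA)26Sortm1.1(CAG-cas9*,-EGFP), which makes Cas9 and EGFP, on a B6J.129(Cg) background. The 14 Gata1s libraries share the guide sgGata1, the controls included. They were LUC (n = 3) and Arid3a (n = 3) after 48 h of doxycycline at 1 µg/mL, and sh-ctrl (n = 3), shArid3a (n = 2, numbered 1 and 3) and miR-125b (n = 3) after 10 days at that dose. The 3 WT libraries carried sgLuc and shLuc, with no doxycycline entered in their labels, so WT differed from the other groups in genotype, treatment, second transgene and count table together, and these cannot be told apart. Nothing in the labels says that the libraries of a group came from separate cultures or animals, so the p-values measure the spread between libraries, which may be technical.

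The proteasome is the barrel-shaped protease that degrades ubiquitin-tagged proteins. Its core particle holds the cutting sites in the beta subunits Psmb5, Psmb6 and Psmb7, and the regulatory particle caps the core, binds ubiquitin, unfolds the substrate with its ATPases and feeds it in. In blood and immune cells, Psmb8, Psmb9 and Psmb10 can replace Psmb5, Psmb6 and Psmb7 and alter which peptides are made, and the PA28 activators (Psme1 to Psme3) and PA200 (Psme4) can cap the core in place of the regulatory particle. The transcription factor NFE2L1 is known to raise the subunit genes together when proteasome activity is short.

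Because 1 group was given miR-125b, the mature miRNA and its matches in the members are shown first. From RefSeq (GRCm38.p6), the 5p strand is the same in both loci, Mir125b-1 at chr9:41581940-41581961 and Mir125b-2 at chr16:77646279-77646300, both on the plus strand. The seed, bases 2 to 8, is in capitals.
miR-125b-5p: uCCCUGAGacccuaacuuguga
A full match to the seed followed by A (an 8mer) was found in the annotated 3′ untranslated region of 3 of the 49 members (6.12%), against 4.86% of 21039 protein-coding genes. With a seed match lacking that A counted too, it was 4 of 49 (8.16%) against 13.7%, where the median untranslated length was 294 bases in the members and 960 in all genes. The matches are shown with the bases before them, 5′ to 3′ in the sense of the transcript, the match in capitals.
Psmc1: tggcccacagtcgtcCTCAGGGA
Psmf1: caggaccagggccagtCTCAGGGA
Psmg3: gaaacagcactcaagtCTCAGGGA
Psmb11: acaccactgcctcctcCTCAGGGc
Psmb11 was not expressed, and the levels of Psmc1, Psmf1 and Psmg3 under miR-125b are given with their classes. None of them passed the edgeR test without a block in either direction.

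Promoter letters were searched because 26 members rose in 1 comparison. RefSeq windows from 250 bases before to 50 after the start were held for 41 of the 49 members and for 27025 genes in all. The core TGACNNNGC of the antioxidant response element, the type of site that NFE2L1 binds, was present on either strand in 6 of 41 members (14.6%) and in 13.99% of all genes. Those 6 were Psmb5, Psmb6, Psmc6, Psmd12, Psmd9 and Psme4. The letters CCAAT were in 34.1% of members and 41.1% of all genes, with 5 of the 7 alpha ring genes among them. GAAA, any 2 bases and GAAA again, the core of the interferon-stimulated response element, was in 5 of 41 members (12.2%) against 3.99%, and none of those 5 was an immunoproteasome subunit gene (they were Psmb3, Psmd4, Psmd9, Psme1 and Psmg4). TTCNNNGAA, the core of a STAT site, was in 3 of 41 (7.32%) against 9.55%, Psmb8 being 1 of the 3. The stretches before the start of 3 genes that rose under miR-125b are printed with the motif in capitals, TGACNNNGC in Psmb5 and Psmb6 and CCAAT in Psmc2. They lie at chr14:54617996-54618098 on the minus strand, chr11:70525292-70525356 on the plus strand and chr5:21785189-21785274 on the plus strand.
Psmb5: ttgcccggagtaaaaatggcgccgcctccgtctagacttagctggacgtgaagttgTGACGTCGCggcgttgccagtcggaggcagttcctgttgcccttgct
Psmb6: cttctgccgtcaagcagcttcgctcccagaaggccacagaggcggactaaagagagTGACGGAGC
Psmc2: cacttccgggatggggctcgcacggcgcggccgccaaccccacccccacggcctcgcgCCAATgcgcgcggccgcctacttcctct
Psmd9 and Psme4 also hold TGACNNNGC, and Psmc1, Psme3, Psmb9, Psmd10 and Psmd14 hold CCAAT. By edgeR without a block, none of these was called higher under miR-125b. Psmd12 with TGACNNNGC was called higher, as were Psmb3, Psmd4 and the 5 alpha ring genes with CCAAT. Psmc6, with TGACNNNGC, was 134, 128 and 118 CPM in sh-ctrl and 200, 151 and 162 in miR-125b, and its call is not reported here. A match is a description of these letters and not evidence of a bound site.

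Library totals were 31339238 to 38678649 counts where LUC and Arid3a were tabulated, 31992089 to 40859301 in the table of sh-ctrl, shArid3a and miR-125b, and 16362439 to 19212193 in the WT table. Arid3a itself averaged 67.2 ± 3.09 CPM (counts per 1000000 after TMM scaling within the table, SD, n = 3) in LUC and 70.9 ± 11.3 (n = 3) in those labelled Arid3a. It was not called higher there (0.08 on the log2 scale, edgeR adjusted p = 0.737), but those libraries were split. Library 1, at 58.3, was below all LUC libraries (64.0 to 70.2), and libraries 2 and 3, at 74.3 and 80.1, were above them. Arid3a RNA was 52.9 ± 6.70 in sh-ctrl, 19.7 ± 1.03 (n = 2) in shArid3a and 8.97 ± 1.60 (n = 3) in miR-125b, and it fell in both (edgeR adjusted p = 0.0368 and 0.000282). Of the cell type markers, hepatocyte genes summed to 0.536 to 4.50 CPM of library totals in every group, with Ttr and Serpina1a at 0 in WT, Arid3a, sh-ctrl, shArid3a and miR-125b, while megakaryocyte genes summed to 2442 to 4627 in the Gata1s libraries and 1006 to 1259 in WT. In these bulk samples, fewer cells of a type and less RNA per cell cannot be told apart.

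All members but Psmb11 and Psma8 had at least 187 counts in every library. Together they took 0.823% ± 0.00685 of all counts in LUC, 0.746% ± 0.0175 in Arid3a, 0.817% ± 0.0763 in sh-ctrl, 0.988% ± 0.103 (n = 2) in shArid3a, 1.03% ± 0.0456 in miR-125b and 0.613% ± 0.0538 in WT (SD, n = 3 where not given). Psmb11, the thymus-type subunit, had 0 to 2 counts in every library, under the floor of 3 counts, and was the only member left out of the tests by the filter on low counts. Psma8, the testis-type alpha subunit, was at 0 to 489 counts and is described with the alpha ring. The other 48 members were tested in each comparison.

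Levels can be compared between genes only per kilobase of gene model. Averaged over all 17 libraries, on CPM of library totals per kilobase, the alpha ring ran from 44.1 for Psma3 to 275 for Psma2 and the beta ring from 36.1 for Psmb7 to 270.3 for Psmb1. The ATPases ran from 40.7 (Psmc2) to 181 (Psmc1), the non-ATPases of base and lid from 25 (Psmd11) to 152 (Psmd7), and the assembly chaperones from 5.32 (Psmd9) to 62.4 (Psmg2). Subunits that stand in the complex in equal number thus differed several-fold in RNA per kilobase. The gene model length enters this value directly, and transcripts in use were not measured.

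Of the immunoproteasome subunits, Psmb8 and Psmb9 had their highest group mean in WT, and Psmb10 had its highest in miR-125b. On CPM of library totals, Psmb8, the counterpart of Psmb5, was 175, 114 and 128 in the 3 WT libraries, 44.8, 44.4 and 48.0 in LUC, and 43.2, 31.7 and 43.0 in Arid3a. It was 114, 59.5 and 63.0 in sh-ctrl, 114 and 72.2 in shArid3a, and 142, 99.0 and 100.2 in miR-125b. The 3 WT libraries were above every LUC, Arid3a, sh-ctrl and shArid3a library, narrowly so for library 1 of sh-ctrl and shArid3a, and library 1 of miR-125b lay within the WT range. Psmb9, the counterpart of Psmb6, was 101, 71.0 and 73.9 in WT and 15.3 to 65.8 in the other 14 libraries, so that WT did not overlap with them. Psmb10, the counterpart of Psmb7, was 113, 67.5 and 77.3 in WT, a range that held all LUC and sh-ctrl libraries and overlapped with Arid3a and shArid3a, and it was 145 to 182 in miR-125b, above WT.

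**Figure D1:**
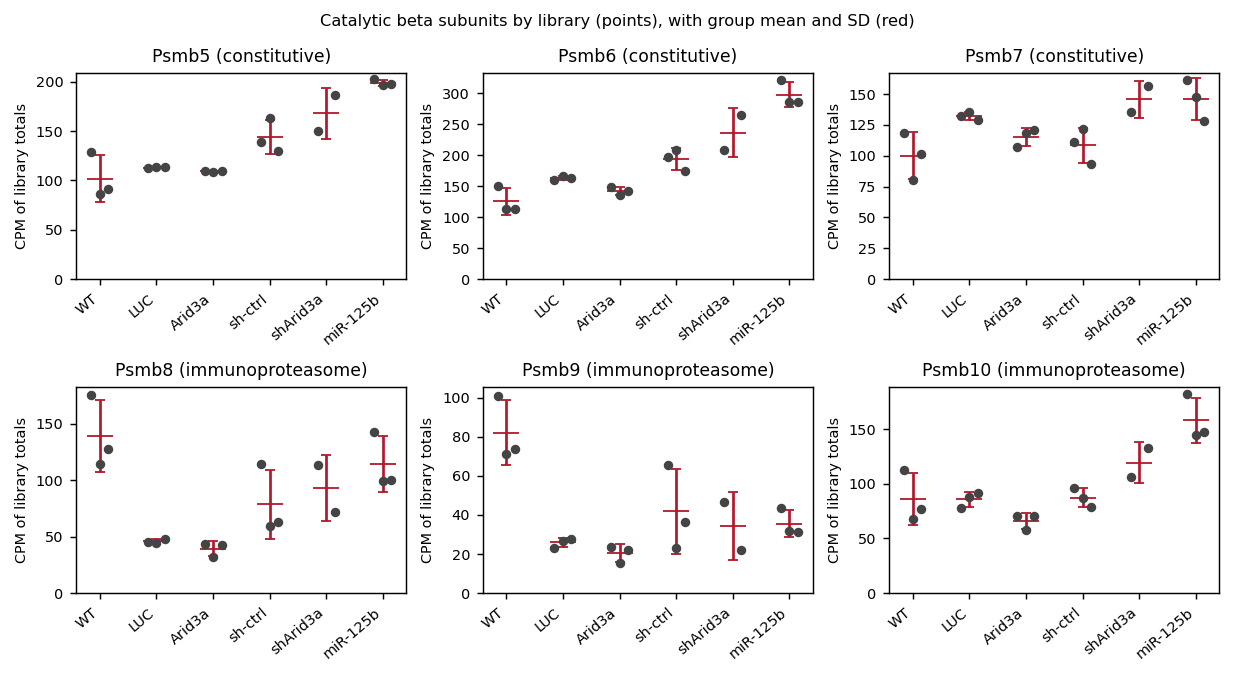
Levels of the 3 constitutive catalytic subunits (top) and their immunoproteasome counterparts (bottom), in CPM of library totals on linear axes from 0. Points are libraries and red marks the group mean and SD. Psmb9 is highest in the 3 WT libraries (71.0 to 101), whereas Psmb10 is highest in miR-125b (145 to 182).

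The ratio of the paired genes within a library does not depend on scaling between libraries. The ratio of counts of Psmb8 to Psmb5 was 1.36 in WT (range 1.33 to 1.40) and 0.405 in LUC, 0.359 in Arid3a, 0.557 in sh-ctrl, 0.573 in shArid3a and 0.571 in miR-125b, with no Gata1s library over 0.820. Psmb9 to Psmb6 was 0.651 in WT (0.630 to 0.672) and 0.119 to 0.218 as group means elsewhere, with no library over 0.334. Psmb10 to Psmb7 gave no such gap: it was 0.853 in WT, 0.649 in LUC, 0.574 in Arid3a, 0.810 in sh-ctrl, 0.814 in shArid3a and 1.08 in miR-125b. Markers of several cell types also differed between WT and the Gata1s libraries. Summed over their lists, 6 myeloid and neutrophil genes were at 10395 to 14503 CPM of library totals in WT and 5.44 to 144 in the Gata1s libraries, and 6 monocyte and macrophage genes at 5917 to 7185 against 4.57 to 50.2. S100a9 was at 0 in sh-ctrl and shArid3a, and C1qb at 0 in sh-ctrl, shArid3a and miR-125b. Mast cell and basophil genes were at 885 to 996 in WT against 23.7 to 254, and pan-hematopoietic genes at 595 to 706 against 10.2 to 57.8. Dendritic and B lymphoid genes were at 41.7 to 56.5 against 0.0285 to 1.37. Erythroid genes overlapped, at 95.0 to 148 in WT and 131 to 656 in the Gata1s libraries. The part of these cell types in the ratios was not tested.

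Within the tables, 12 tests of these ratios were made. The libraries of miR-125b had a higher ratio of Psmb10 to Psmb7 than sh-ctrl, by 0.42 on the log2 scale or 1.34-fold, with no overlap (0.979 to 1.15 against 0.716 to 0.869). The two-sided exact permutation p was 0.1, the smallest that 3 against 3 libraries allow, and 0.72 after Benjamini-Hochberg adjustment over the 12, so the design could not pass the threshold. Against shArid3a the same ratio was higher by 0.41 (exact permutation p = 0.2, adjusted 0.72), again without overlap. The ratios of Psmb8 to Psmb5 and of Psmb9 to Psmb6 overlapped between groups in every comparison, with exact permutation p from 0.3 to 1.

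**Figure D2:**
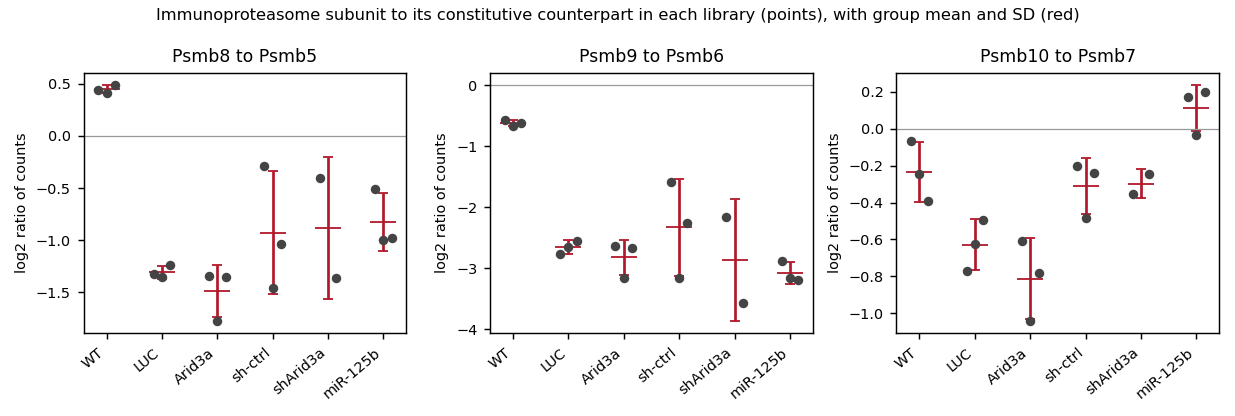
The log2 ratio of counts of each immunoproteasome gene to its constitutive counterpart in every library (points), with group mean and SD in red. The grey line is equal counts. WT stands above the Gata1s groups for Psmb8 to Psmb5 and Psmb9 to Psmb6, and miR-125b is the highest group for Psmb10 to Psmb7.

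Setting the miR-125b libraries against sh-ctrl compares Gata1s cells given the miRNA with their controls. Proteasome genes were higher in miR-125b across both particles. By edgeR's quasi-likelihood test with Benjamini-Hochberg adjustment over 14004 genes, 26 of 48 members rose and 0 fell, where 12.1% of all genes tested rose and 12.2% fell. The median log2 fold change was 0.56 in the members and -0.03 over all genes, and 38 of 48 members had all miR-125b libraries above all sh-ctrl libraries, against 22% of all genes. The same sh-ctrl libraries served the shArid3a comparison. With library totals in place of TMM the median of all genes was -0.22, and 14 members rose and 2, Psme3 and Psme4, fell, against 6.36% and 17.5% of all genes. DESeq2 called 36 members higher and 1, Psme4, lower, against 15.8% and 15.4%.

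The core particle rose most evenly: 13 of its 14 constitutive genes rose, all 14 had groups without overlap, and the median fold was 1.52. Psmb6, which carries the caspase-like site, had the largest rise of the constitutive core: it was 186, 196 and 154 CPM in sh-ctrl and 359, 288 and 295 in miR-125b, higher by 0.81 ± 0.16 in log2 units (± is the SE here and in what follows, edgeR adjusted p = 0.0106). Psmb5, which carries the chymotrypsin-like site, was 131, 153 and 114 against 226, 198 and 204 (0.66 ± 0.15, edgeR adjusted p = 0.0169). Psmb7, with the trypsin-like site, was 105, 114 and 81.9 against 181, 149 and 132 (0.62 ± 0.17, edgeR adjusted p = 0.026). All 3 miR-125b libraries were therefore above all controls for each catalytic gene. In the alpha ring, which gates the entry to the barrel, all 7 genes rose by 0.47 (Psma1) to 0.71 (Psma7) on the log2 scale. Psmb2 was the core gene that missed the threshold, at 0.46 (edgeR adjusted p = 0.063). Psma8, the testis-type gene, stood apart: it was 13.8, 1.73 and 0.586 CPM in sh-ctrl and 2.58, 0.109 and 0.202 in miR-125b (edgeR adjusted p = 0.158), so library 1 was highest in both groups.

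In the regulatory particle 7 of 17 genes rose and none fell, with a median fold of 1.39. Among the ATPases, which unfold the substrate, 4 of 6 rose. Psmc2 was 157, 198 and 154 CPM in sh-ctrl and 338, 294 and 291 in miR-125b (0.86 ± 0.16, edgeR adjusted p = 0.0091), and Psmc5 was 157, 209 and 140 against 312, 279 and 282 (0.79 ± 0.18, edgeR adjusted p = 0.017). The groups did not overlap for either gene. Psmc1, which holds a miR-125b seed match, was 193, 349 and 256 against 373, 455 and 442 (0.67, edgeR adjusted p = 0.0536). Of the base non-ATPases, the ubiquitin receptor Psmd4 rose by 0.70 (edgeR adjusted p = 0.0125), Psmd2 was at 0.41 (0.0726) and Psmd1 at -0.09 (0.677). In the lid, which removes ubiquitin, Psmd13 rose by 0.61 and Psmd12 by 0.48 (edgeR adjusted p = 0.0302 and 0.0319), and the other 6 had positive values that missed the threshold.

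The immunoproteasome genes did not move as 1 set. Psmb10 had the largest rise of all members: it was 90.9, 81.5 and 69.3 CPM in sh-ctrl and 203, 146 and 152 in miR-125b, 2.07-fold higher (log2 1.05 ± 0.18, edgeR adjusted p = 0.0065). Psmb8 was 108, 55.8 and 55.4 against 159, 99.7 and 104 (0.73 ± 0.28, edgeR adjusted p = 0.0846). Psmb9 was 62.1, 21.9 and 32.2 against 48.7, 32.3 and 32.1 (-0.04 ± 0.37, edgeR adjusted p = 0.946), a value whose sign changed between alternatives. Library 1 was the highest of its group for Psmb8 and Psmb9 in sh-ctrl, shArid3a and miR-125b alike. With the library number as a block, Psmb8 rose (0.76, edgeR adjusted p = 0.00724), and Psmb9 was at 0.07 (edgeR adjusted p = 0.807).

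Psmb8 and Psmb9 lie side by side on chromosome 17 at 34197721-34201454 and 34181987-34187764 (GRCm38), and Psmb9 overlaps Tap1, the peptide transporter gene. Use of strand in the counting is not given in the sources used here, so reads of Psmb9 and Tap1 cannot be told apart with certainty. Tap1 was 73.4, 52.5 and 66.0 CPM in sh-ctrl and 59.7, 57.1 and 75.1 in miR-125b. Psmb10 lies apart from them on chromosome 8 at 105935735-105938444.

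Of the 5 activator genes 1 passed the test. Psme1, a subunit of the PA28 activator that works with the immunoproteasome, was 260.3, 276 and 233 CPM in sh-ctrl and 420.3, 311 and 332 in miR-125b, and rose by 0.47 ± 0.14 (edgeR adjusted p = 0.0407). Its partner Psme2 was 115, 91.4 and 75.4 against 175, 119 and 114 (0.54 ± 0.21, edgeR adjusted p = 0.0818). Psme2b is a near-identical copy of Psme2 on another chromosome, so the split of reads between these copies is uncertain; it was at 0.67 (edgeR adjusted p = 0.0517). Psme3, the nuclear PA28 subunit, was 229, 313 and 221 against 232, 187 and 172 (-0.37 ± 0.17, edgeR adjusted p = 0.128). Psme4, which encodes PA200, was 86.1, 107 and 107 against 69.0, 78.3 and 81.3, so all miR-125b libraries were below all controls (-0.39 ± 0.13, edgeR adjusted p = 0.0503), and it was called lower in 6 of 14 alternatives (adjusted p from 0.0230 to 0.149). Psmf1, the inhibitor PI31, holds a seed match and was 69.4, 70.9 and 56.4 against 70.0, 66.5 and 60.8, with a log2 difference of 0.00 that changed sign between alternatives.

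Assembly chaperones rose in part. Of the core chaperones, which build the alpha ring, Psmg1 rose by 0.71, Psmg2 by 0.73 and Psmg4 by 0.68 (edgeR adjusted p = 0.0163, 0.0149 and 0.0353). Psmg3, with a seed match, was 21.6, 22.3 and 17.2 CPM in sh-ctrl and 33.4, 24.9 and 26.2 in miR-125b (0.47, edgeR adjusted p = 0.129). Of the base chaperones, Psmd5 rose by 0.49 (edgeR adjusted p = 0.0201), while Psmd9 was at 0.51 (0.0602) and Psmd10 at 0.29 (0.147).

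In this comparison same-numbered libraries deviated together, but library 2 of miR-125b correlated better with sh-ctrl replicate 3, so the pairing is uncertain. With the library number as a block 27 members rose and 1 fell, against 12.9% and 13.4% of all genes. Beside Psmb8, the block brought Psmc1 (edgeR adjusted p = 0.0149) and Psme2b (0.0235) under the threshold as higher and Psma8 (0.0226) as lower, and took Psma1 (0.0523) and Psme1 (0.0568) past it. The count rested in part on single libraries: without sh-ctrl replicate 3 it was 2 (Psmb10 and Psmc2), where 2.23% of all genes rose. Without miR-125b replicate 1, 11 rose and Psma8 fell (6.08% and 6.6% of all genes), and without miR-125b replicate 3, 16 rose (7.28%). By library, the median of 47 members (Psma8 and Psmb11 left out) stood at 0.71, 0.45 and 0.45 above the sh-ctrl mean on log2(CPM + 1), and the sh-ctrl libraries themselves were at -0.00, 0.15 and -0.17. Some markers were called in the same contrast, where 12.1% of all genes rose and 12.2% fell. Of the erythroid genes 2 of 6 tested fell (Hbb-bs and Hbb-bt). Rises were called in 2 of 4 myeloid genes (Mpo and Elane), 2 of 6 mast cell and basophil genes (Mcpt8 and Prss34) and 1 of 4 monocyte genes (Lyz2). Of 7 megakaryocyte genes Gp1bb rose while Itga2b and Vwf fell. Afp, the hepatocyte gene that could be tested, rose from a level near 0. Summed levels were 171 to 200.2 CPM of library totals in miR-125b and 343 to 656 in sh-ctrl for erythroid genes, 78.0 to 144 and 49.3 to 110.5 for myeloid genes, and 57.7 to 254 and 30.2 to 79.2 for mast cell genes. Their part in the result was not tested.

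**Figure D3:**
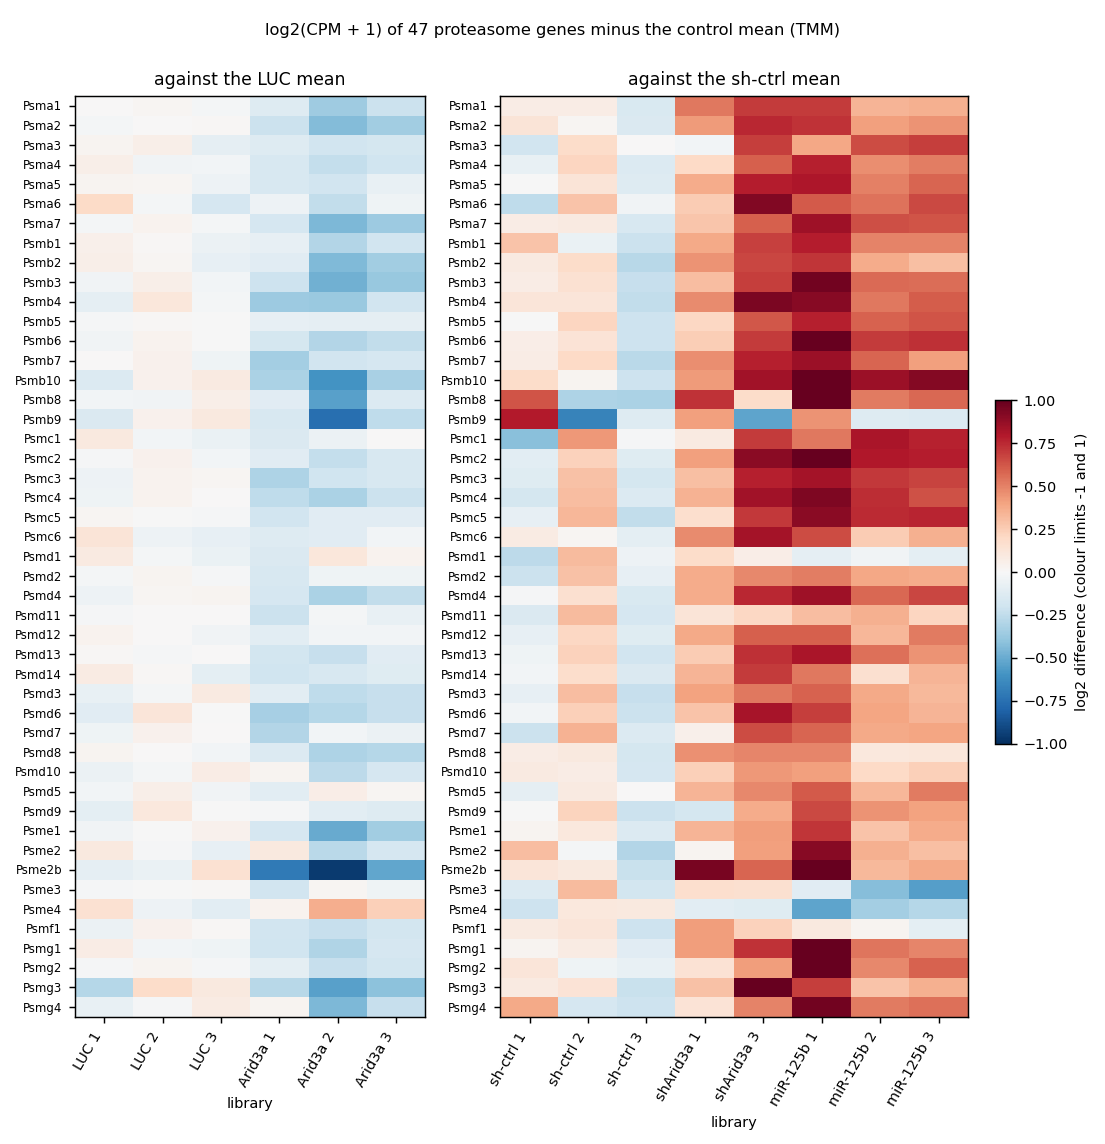
Difference of log2(CPM + 1) from the mean of the control group for 47 proteasome genes in each library, LUC and Arid3a at left, sh-ctrl, shArid3a and miR-125b at right (TMM within each table; colours end at -1 and 1). Most rows are above the control mean in shArid3a and miR-125b and below it in Arid3a, and Psme4 runs the other way; no member was called in shArid3a or Arid3a.

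The hairpin against Arid3a was compared with the same sh-ctrl libraries. Members were higher in shArid3a, but none passed the test: by edgeR, 0 of 48 rose or fell (lowest adjusted p = 0.0997), where 0.05% of all genes rose. At an unadjusted p under 0.05, 32 of 48 were higher and 0 lower, against 13.3% of all genes higher. All shArid3a libraries were above all controls for 31 of 48 members, against 21.6% of all genes. The median log2 fold change was 0.46 in the members and -0.02 over all genes; on library totals these were 0.27 and -0.22. DESeq2 called 17 members higher and 0 lower, where it called 5.31% of all genes higher.

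The members with the smallest p were 2 ATPases and an alpha subunit. Psmc6 was 134, 128 and 118 CPM in sh-ctrl and 176 and 226 in shArid3a (0.66 ± 0.16, edgeR adjusted p = 0.0997). Psma1 was 230.1, 230.0 and 197 against 315 and 356 (0.62 ± 0.16, edgeR adjusted p = 0.101). Psmc2 was 157, 198 and 154 against 224 and 315 (0.67 ± 0.18, edgeR adjusted p = 0.101). In each of these, both shArid3a libraries were above all controls, and library 3 was the higher of the pair. The same order held for the members as a whole: the median of 47 members was 0.34 above the sh-ctrl mean in library 1 and 0.67 in library 3.

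By class, the median log2 fold change was 0.54 in the constitutive core (range 0.37 to 0.72), with 13 of 14 genes higher at an unadjusted p under 0.05, and 0.49 in the regulatory particle, with 12 of 17. Among the catalytic genes, Psmb7 was at 0.62, Psmb6 at 0.48 and Psmb5 at 0.42 (edgeR adjusted p = 0.107, 0.139 and 0.161). Of the immunoproteasome, Psmb10 was 108 and 144 CPM against 90.9, 81.5 and 69.3 (0.65 ± 0.19, edgeR adjusted p = 0.107), without overlap. Psmb8 was 115 and 78.8 against 108, 55.8 and 55.4 (0.41 ± 0.31, edgeR adjusted p = 0.429), and Psmb9 was 47.3 and 24.2 against 62.1, 21.9 and 32.2 (-0.12 ± 0.41, edgeR adjusted p = 0.883, with a positive value under some alternatives). Both of the latter overlapped with the controls. Of the caps, Psme1 was at 0.38, Psme2 at 0.21, Psme3 at 0.15 and Psme4 at -0.12 (edgeR adjusted p = 0.175, 0.584, 0.648 and 0.624), and the value of Psme3 changed sign on library totals. Psmf1 was 87.7 and 76.8 CPM against 69.4, 70.9 and 56.4 (0.33, edgeR adjusted p = 0.193). No marker gene passed the adjusted test here. At an unadjusted p under 0.05 Itga2b and Vwf (megakaryocyte), Lyz2 (monocyte) and Pdgfrb (stroma) were lower. The share of all genes lower at that threshold is not reported here. Summed erythroid markers were at 316 to 330 CPM of library totals in shArid3a and 343 to 656 in sh-ctrl. Stroma markers were at 21.9 to 26.4 and 32.7 to 74.0, and monocyte markers at 4.57 to 5.52 and 6.75 to 16.2. Dendritic and B lymphoid markers, near 0, were at 0.0541 to 0.0804 and 0.278 to 0.568. The groups did not overlap in these lists and overlapped in the other lists. The part of these cell types in the members' values was not tested.

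The Arid3a comparison had the opposite sign in nearly all members. By edgeR over 13495 genes, 0 of 48 members and 0% of all genes were called lower (lowest adjusted p among members = 0.0786, 0 called higher). At an unadjusted p under 0.05, 27 of 48 were lower and 0 higher, against 10.5% of all genes lower. In 33 of 48 all libraries labelled Arid3a were below all LUC libraries, against 14.6% of all genes. DESeq2 called 13 members lower and 0 higher, where it called 4.48% of all genes lower. The median log2 fold change was -0.20 in the members and 0.01 over all genes, and 46 of 48 values were negative. Since Arid3a RNA was not called higher in the libraries labelled Arid3a, and was split among them, these values compare the libraries by their labels.

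Psme2b, the copy of Psme2, had the lowest p: it was 54.3, 55.1 and 64.3 CPM in LUC and 34.9, 29.2 and 39.9 in the libraries labelled Arid3a (-0.74 ± 0.13, by edgeR adjusted p = 0.0786). Psma2 was 248, 252 and 253 against 216, 185 and 197 (-0.33 ± 0.07, edgeR adjusted p = 0.0908), and Psmc4 was 175, 186 and 181 against 152, 144 and 156 (-0.26 ± 0.06, edgeR adjusted p = 0.0962). The groups did not overlap for any of these genes. The constitutive core had a median of -0.23, with 13 of 14 genes lower without overlap, and the regulatory particle -0.16, with 12 of 17. Psmb5 was 114, 116 and 114 against 108, 108 and 108 (-0.09, edgeR adjusted p = 0.407), Psmb6 was at -0.24 (0.106) and Psmb7 at -0.23 (0.128).

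The immunoproteasome genes were lower without overlap in all 3 cases, and none passed the test. Psmb10 was 78.7, 89.5 and 92.3 CPM in LUC and 69.3, 56.8 and 69.0 in the libraries labelled Arid3a (-0.42 ± 0.10, by edgeR adjusted p = 0.0977). Psmb8 was 45.5, 45.3 and 48.4 against 42.8, 31.5 and 42.2 (-0.26, edgeR adjusted p = 0.288), and Psmb9 was 23.7, 27.1 and 28.2 against 23.4, 15.1 and 21.9 (-0.38, edgeR adjusted p = 0.253). Library 2 was the lowest of the Arid3a group for each of them. Of the caps, Psme1 was 208, 213 and 220 against 190, 150 and 168 (-0.34 ± 0.09, edgeR adjusted p = 0.112), Psme2 was at -0.11 and Psme3 at -0.07 (edgeR adjusted p = 0.599 and 0.607). Psme4 was the exception with a positive value, at 153, 132 and 128 against 141, 177 and 162 (0.22, edgeR adjusted p = 0.294). Psmf1 was at -0.21 (edgeR adjusted p = 0.132).

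Without library 1 of the Arid3a group, 21 members were called lower and Psme4 higher, where 10.5% of all genes were called lower and 12.7% higher. Library 1 was also the one of its group with the lowest Arid3a RNA, and the part of this was not tested. By library the median of the 47 members was -0.16, -0.25 and -0.17 from the LUC mean, and the LUC libraries were within 0.02 of it. Erythroid markers summed to 131 to 301 CPM of library totals in the Arid3a group and 133 to 177 in LUC. Mast cell and basophil markers summed to 59.5 to 199.5 and 42.3 to 65.5, and pan-hematopoietic markers to 21.8 to 57.8 and 17.9 to 23.5. These ranges overlap, and no marker gene was called by edgeR. At an unadjusted p under 0.05, 3 of 7 erythroid genes were higher and 2 lower, where 10.5% of all genes were lower. At that threshold 1 of 7 megakaryocyte genes and 1 of 3 mast cell and basophil genes were higher. The share of all genes higher is not reported here. The part of these cells in the result was not tested.

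Set directly against shArid3a, the miR-125b libraries had no member called higher or lower by edgeR (lowest adjusted p = 0.226), where 0.664% of all genes were called higher and 0.686% lower. DESeq2 likewise called 0. At an unadjusted p under 0.05, 1 member, Psmg2, was higher (7.32% of all genes) and 1, Psme3, was lower (7.2%). The median log2 difference was 0.07. Psme3 was 282 and 281 CPM in shArid3a and 232, 187 and 172 in miR-125b (-0.52 ± 0.19, edgeR adjusted p = 0.226), and Psmg2 was 65.4 and 79.3 against 122, 82.7 and 89.4 (0.44 ± 0.18, edgeR adjusted p = 0.307). Psmf1 was at -0.32 (edgeR adjusted p = 0.351), Psmb10 at 0.41 (0.374), Psmb8 at 0.32 (0.723) and Psme4 at -0.27 (0.427). A difference that misses the threshold with 3 and 2 libraries does not show that the groups were alike: the SE of these values was 0.14 to 0.32.

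**Figure D4:**
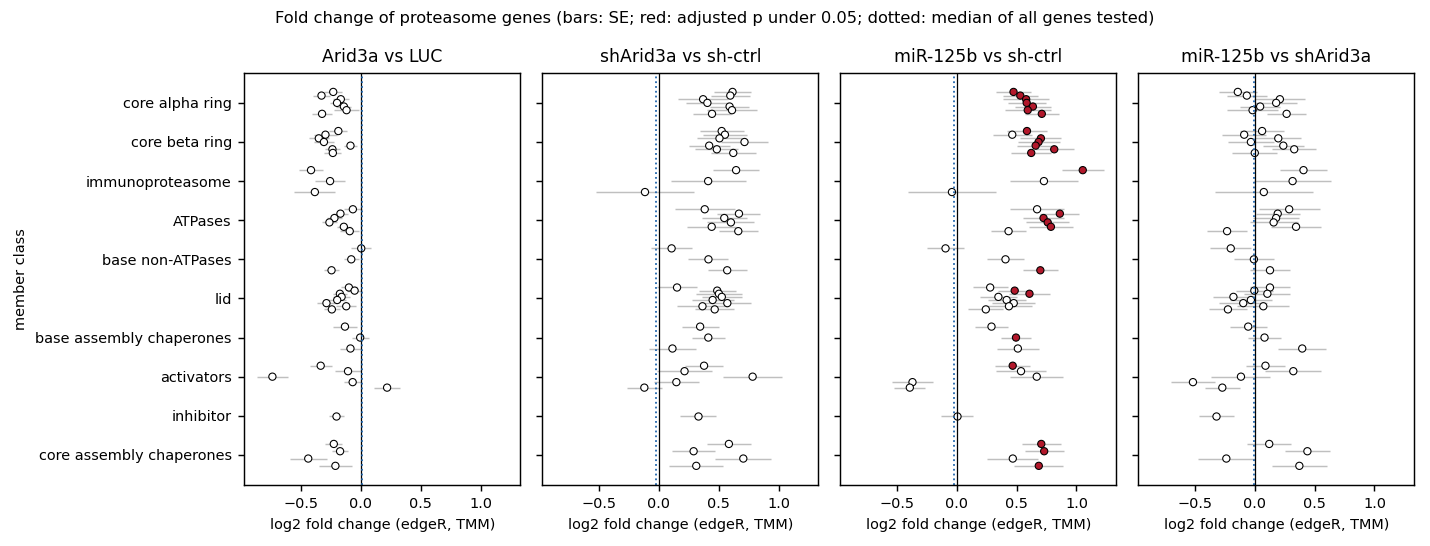
The log2 fold change of each tested member (point) with its SE (bar) by class in the 4 comparisons, red where the edgeR adjusted p was under 0.05. Psma8 is left out for its wide error, and the dotted line is the median of all genes tested. Red points, 26 in all, appear only for miR-125b against sh-ctrl.

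Partners of the proteasome outside the symbol rule were counted from a list of 11 genes. Under miR-125b 6 of 11 rose and 0 fell, where 12.1% of all genes rose: Sem1, a small lid subunit, rose by 0.79 (edgeR adjusted p = 0.0137), Pomp, the maturation factor of the core particle, by 0.61 (0.0179), and Txnl1, a thioredoxin of the regulatory particle, by 0.54 (0.0239). Pomp was 191 ± 21.0 CPM in sh-ctrl and 292 ± 36.0 in miR-125b, without overlap. In shArid3a none of the 11 was called and 7 were higher at an unadjusted p under 0.05 (13.3% of all genes), with Pomp at 0.42, Sem1 at 0.74, Usp14, a deubiquitinase, at 0.56 and Txnl1 at 0.56 (edgeR adjusted p = 0.151, 0.101, 0.101 and 0.101). In the libraries labelled Arid3a none was called, and Pomp was at -0.28, the ubiquitin receptor gene Adrm1 at -0.26 and Zfand5, a proteasome-binding zinc finger gene, at 0.35 (edgeR adjusted p = 0.0895, 0.0995 and 0.142).

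Of 10 tested genes that control the transcription of proteasome genes, 3 fell under miR-125b and none rose, where 12.2% of all genes fell. They were Bach1, a repressor that shares sites with NFE2L factors (-0.96, edgeR adjusted p = 0.0065), Mafk, a small Maf partner (-0.83, 0.0094), and Ddi2, the protease that activates NFE2L1 (-0.46, 0.0492). Bach1 was 60.5, 67.0 and 64.7 CPM in sh-ctrl, 44.6 and 32.1 in shArid3a and 27.7, 34.5 and 36.6 in miR-125b, with no overlap of either group with the controls. Nfe2l1 itself was 50.8, 61.3 and 48.7 in sh-ctrl, 48.9 and 39.1 in shArid3a and 41.8, 48.7 and 45.1 in miR-125b, at -0.28 and -0.25 (edgeR adjusted p = 0.294 and 0.229). It was 72.3, 74.9 and 74.8 in LUC and 80.5, 95.7 and 93.1 in the libraries labelled Arid3a (0.28, by edgeR adjusted p = 0.121). The median log2 fold change of the 10 genes was -0.24 under miR-125b and -0.19 in shArid3a, which share their controls, and 0.15 in the libraries labelled Arid3a. In shArid3a Bach1 was at -0.74, Mafk at -0.53 and Mafg at -0.60 (edgeR adjusted p = 0.0997, 0.123 and 0.139), and in the libraries labelled Arid3a Bach1 was at 0.39 and Mafk at 0.27 (0.134 and 0.123).

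Of 11 genes for ubiquitin and its shuttling factors, 2 rose under miR-125b and 0 fell, where 12.1% of all genes rose. Among them was Rps27a, a ubiquitin and ribosomal protein fusion, which rose by 0.98 (edgeR adjusted p = 0.0408). Ubb, a polyubiquitin gene, was at 0.41 (0.0607). Rps27a varied widely between libraries, at 880.2 ± 322 CPM in sh-ctrl and 1732 ± 468 in miR-125b. In shArid3a none was called, with Rps27a at 0.88 and Ubqln2, a shuttle, at 0.32 (edgeR adjusted p = 0.144 and 0.167), and none was called in the libraries labelled Arid3a.

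Genes of interferon signalling and antigen processing around the immunoproteasome did not follow Psmb10 as a set. Of 9 tested under miR-125b, B2m, the light chain of class I molecules, rose by 0.90 (edgeR adjusted p = 0.0069), Stat2 fell by 0.94 (0.0395), and the other 7, with Tap1 at 0.00 (0.999), did not pass. B2m was 523, 410.4 and 379 CPM in sh-ctrl, 612 and 627 in shArid3a and 915, 757 and 779 in miR-125b. Nlrc5, the class I transactivator that can act on Psmb9 and B2m, was 13.5, 9.91 and 12.0 in sh-ctrl, 3.10 and 1.77 in shArid3a and 7.17, 15.5 and 11.3 in miR-125b. It was higher in miR-125b than in shArid3a by 2.21 (edgeR adjusted p = 0.0261), the gene of this list called there, and was at -2.27 in shArid3a against sh-ctrl (edgeR adjusted p = 0.0951). In the libraries labelled Arid3a none of the 9 was called, and B2m was at -0.25 (edgeR adjusted p = 0.176).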

How the data were processed

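Per the submitters' processing notes, reads were handled with fastp, HISAT2 2.0.5 and featureCounts against mm10. The strand setting and annotation release are not given in the sources used here. The authors deposited raw counts per gene in 3 tables, joined by Ensembl identifier. The members and gene lists were chosen with earlier results of these data known, and groups were taken from the labels alone.

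Counts were scaled by TMM, filtered with filterByExpr and tested with edgeR 4.0.16 (glmQLFit, glmQLFTest, R 4.3.3), with 1 term per group and Benjamini-Hochberg adjustment over all genes of a table. A gene was called below 0.05. One fit held the 8 libraries of the knockdown table. The SE of a fold change was derived from the F statistic. On simulated data with 200 genes changed 2-fold, 98% were recovered for Arid3a against LUC (8 false calls) and 96% for shArid3a against sh-ctrl (10). For miR-125b, 99% were recovered against sh-ctrl (5) and 95% against shArid3a (6). Every simulated gene had the same spread and there were no library effects, and the fold was larger than that of most members. These shares therefore do not give the power for the members. Levels across all 6 groups are CPM of library totals, with no test across tables, and ratio tests were exact permutation tests over libraries, two-sided. As reads carry no molecular identifiers, the floor (3 counts) speaks for counting error alone.

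Same-numbered miR-125b and sh-ctrl libraries deviated together (correlations 0.427, 0.151 and 0.294 of deviations from group means over all genes tested). The main fit did not pair them, and the library number entered as a block in an alternative alone. Library 2 of miR-125b correlated better with sh-ctrl replicate 3 (0.205), so the pairing is uncertain. The labels give no shared origin.

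Named in the comparisons with LUC or sh-ctrl were the members Psmb5 to Psmb10, Psme1 to Psme4 and Psmf1, and the non-members Nfe2l1 and Pomp. For miR-125b against shArid3a only some of them were given. Added were the 4 largest called rises and falls in a comparison, or the 3 smallest p where none was called, the highest and lowest level per kilobase of a class, members at or near 0, and the 3 smallest adjusted p of each list. Other members named to complete a class were chosen after their values were seen. Alternatives were library totals, DESeq2 1.42.0, no filter, 10 counts in every library, a robust fit, a replicate block, 362 rRNA-like genes left out, only the groups compared, TMM over all libraries, and each library left out. GENCODE M21 (GRCm38) gave gene positions and 3′ untranslated regions: 36 of 49 member coordinates in the WT table equal it. Of the list genes, Paaf1 was not matched, and the values of some are not reported here.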

Additional observations from a re-analysis of the deposited data

How the results depend on the processing

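The number of members called depended on the method and on single libraries. For Arid3a against LUC it was 0 by edgeR, 13 with DESeq2, 1 without a filter (Psme2b) and 0 to 22 with each library left out. Of all genes, 4.48% were called lower with DESeq2. Without Arid3a replicate 1, 10.5% were called lower and 12.7% higher. For shArid3a against sh-ctrl it was 0, then 17 with DESeq2 (5.31% of all genes called higher) and 15 without a filter, and 0 with any library left out. For miR-125b against sh-ctrl it was 26, then 16 on library totals, 37 with DESeq2, 35 without a filter and 2 to 25 with each library left out. Of all genes, 6.36% rose and 17.5% fell on library totals, and 15.8% and 15.4% with DESeq2. Shares of all genes without a filter, and for most libraries left out, are not reported here. The member counts of those settings therefore cannot be read as particular to the members. For miR-125b against shArid3a it was 0 in every alternative. The causes were not tested. With the replicate block the counts were 0, 0, 28 and 0. Same-numbered LUC and Arid3a libraries correlated at 0.158, 0.365 and 0.008, so the block there joins libraries that share only a number. Arid3a libraries 1 and 3 each correlated better with a LUC library of another number, and the block called no member there. For shArid3a the 2 pairs correlated at 0.431 and 0.161 with sh-ctrl, and at 0.237 and 0.200 with miR-125b. Library 3 of shArid3a correlated better with sh-ctrl replicate 2 (0.364), and with 2 libraries the deviations are mirror images.

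Signs changed for genes near 0. Psmb9 in miR-125b was -0.04, but 0.066 with the replicate block and -0.33 to 0.46 with each library left out, and in shArid3a it was -0.68 to 0.38 with each left out. Psme3 in shArid3a was -0.043 on library totals. Psmf1 in miR-125b was -0.18 on library totals, -0.017 with 10 counts in every library, -0.00058 without rRNA-like genes and -0.10 to 0.060 with each library left out. Psmb11 had too few counts (0 to 2) to say anything of it, and Psma8 varied widely between libraries (489, 59 and 24 counts in sh-ctrl). The effect of depth on the calls of other members was not tested.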
